A study of Mus musculus with 12 samples.

Results

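The transcripts of 7 genes that mark macrophages of monocyte origin were followed across sorted alveolar macrophages of fibrotic mouse lungs: the chemokine receptors Ccr2 and Cx3cr1, the monocyte proteins Ly6c2 and Plac8, and the secreted matrix proteins Fn1, Tgfbi and Thbs1. The genes were taken by symbol as a fixed set, and all 7 of 7 were in the table of 26855 genes and among the 12625 that passed the low-count filter. Alveolar macrophages were recovered by bronchoalveolar lavage 14 days after the mice received bleomycin, which damages lung tissue and serves as a model of pulmonary fibrosis. Filtration by size had split the lavage into a fraction enriched for border-associated alveolar macrophages and one depleted of them, and the cells were sorted on side scatter and on BODIPY, which stains neutral lipid. UPBIG, UPSMALL and DOWN, as the titles call them, hold 4 libraries each, and the labels do not tie a title to a filter fraction or a sorting gate, so the titles are used as names. All 3 groups share the bleomycin treatment, with no untreated lung among them. The labels give no strain, genotype, sex or age, and do not say whether a library came from 1 mouse or from pooled mice. Replicates are therefore separate samples by label only, and p-values measure only how far these samples spread, which may be technical.

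Monocytes of the classical type carry Ly6C and the receptor CCR2, which binds CCL2 and its relatives and lets the cells leave the bone marrow and enter inflamed tissue. In an injured lung some of them settle in the airspaces and turn into alveolar macrophages, losing monocyte transcripts as they mature, while resident alveolar macrophages renew themselves in place. CX3CR1, the receptor for fractalkine, is known from monocytes and from macrophages that descend from them, and fibronectin, TGFBI and thrombospondin 1 are matrix proteins that macrophages secrete during repair.

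The libraries held 17109669 to 23282621 expected counts, and transcripts that define the labelled cell type were abundant. All 12 of 12 alveolar macrophage markers, among them Siglecf, Fabp4 and Chil3, passed the filter. Together they made up 9632 to 12863 CPM (counts scaled to a common library total) in UPBIG, 9879 to 14665 in UPSMALL and 7382 to 11429 in DOWN. Chil3 held most of this sum, with 6234 to 9332 CPM in UPBIG and 5614 to 9856 in DOWN. The sum thus hides differences in other markers. In UPBIG against DOWN 8 of the 12 rose, Siglecf and Fabp4 among them, and 1, Car4, fell. Of all tested genes 9.03% rose and 8.48% fell there. Against UPSMALL 4 rose and 1, again Car4, fell, beside 3.22% and 2.49% of all tested genes. Fabp4 had 707 to 1131 CPM in UPBIG and 84.8 to 198 in DOWN. Of the other cell types a lavage can hold, fibroblast markers summed to at most 0.331 CPM in any library, and 0 of 6 markers of eosinophils, basophils and mast cells were in the table. T and NK cell markers summed to 94.6 to 162 CPM in UPBIG, 40.7 to 78.5 in UPSMALL and 84.2 to 205 in DOWN, with the NK cell receptor Ncr1 at 0 in 11 of 12 libraries. Cd2 held most of this sum in UPBIG and UPSMALL but only 55.0, 42.7, 84.1 and 29.6 CPM of it in DOWN, so the sum does not follow the T cell receptor genes, which are given with Plac8. Dendritic cell markers summed to 11.8 to 20.9 CPM in UPBIG, 41.8 to 103 in UPSMALL and 79.5 to 196 in DOWN. B cell markers reached 16.6 CPM in UPBIG, 12.5 in UPSMALL and 27.4 in DOWN. Neutrophil markers, of which 7 of 9 were in the table, summed to 382 to 419 CPM in UPBIG, 162 to 219 in UPSMALL and 130.4 to 174 in DOWN, with S100a8, Csf3r and Cxcr2 the most counted. S100a8 alone made up 354 to 387 CPM in UPBIG, so the difference in the sum is largely that of 1 gene. Its partner S100a9 had 0 to 5.38 CPM there and 3.11 to 12.4 CPM in DOWN. Cxcr2 was also higher in UPBIG, 12.1-fold against DOWN and 5.72-fold against UPSMALL. Of 4 tested neutrophil markers, S100a8 and Cxcr2 rose in UPBIG in both comparisons, and 0 fell. Of all tested genes 9.03% rose and 8.48% fell against DOWN, and 3.22% rose and 2.49% fell against UPSMALL. Lung epithelium markers summed to 17.1, 231, 67.0 and 21.1 CPM in UPBIG, 10.7 to 45.4 in UPSMALL and 7.90 to 14.6 in DOWN; Scgb1a1, a club cell protein, held 212 CPM in UPBIG replicate 2, and Sftpc, of type II cells, 42.7 CPM in UPBIG replicate 3. In bulk samples such as these, fewer cells of a type and less RNA per cell cannot be told apart.

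The sequences around the start sites of 5 of the members are shown because Ccr2, Cx3cr1, Tgfbi and Plac8 fell together in UPBIG against DOWN, while Ly6c2, itself a monocyte marker, was not called. They are the 250 bases before and 50 after the start in RefSeq's table for GRCm38.p6, the same assembly as mm10, 5′ to 3′ on the strand of the gene; capitals mark the core of the site bound by PU.1 (GAGGAA on either strand), the factor that myeloid cells depend on. They lie at chr9:124101933-124102232 (plus strand) for Ccr2, chr9:120068247-120068546 (minus) for Cx3cr1, chr13:56609336-56609635 (plus) for Tgfbi, chr5:100572156-100572455 (minus) for Plac8 and chr15:75111922-75112221 (minus) for Ly6c2.
Ccr2: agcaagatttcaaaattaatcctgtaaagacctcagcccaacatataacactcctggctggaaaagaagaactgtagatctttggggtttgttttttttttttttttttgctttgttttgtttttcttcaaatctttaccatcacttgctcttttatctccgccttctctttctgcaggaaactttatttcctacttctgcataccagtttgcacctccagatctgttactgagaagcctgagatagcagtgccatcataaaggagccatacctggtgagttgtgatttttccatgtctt
Cx3cr1: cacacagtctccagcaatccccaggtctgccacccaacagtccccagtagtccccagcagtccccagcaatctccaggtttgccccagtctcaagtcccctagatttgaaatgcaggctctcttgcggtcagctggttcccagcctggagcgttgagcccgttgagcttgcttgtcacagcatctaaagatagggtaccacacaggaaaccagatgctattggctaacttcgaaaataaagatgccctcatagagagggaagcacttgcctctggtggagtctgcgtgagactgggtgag
Tgfbi: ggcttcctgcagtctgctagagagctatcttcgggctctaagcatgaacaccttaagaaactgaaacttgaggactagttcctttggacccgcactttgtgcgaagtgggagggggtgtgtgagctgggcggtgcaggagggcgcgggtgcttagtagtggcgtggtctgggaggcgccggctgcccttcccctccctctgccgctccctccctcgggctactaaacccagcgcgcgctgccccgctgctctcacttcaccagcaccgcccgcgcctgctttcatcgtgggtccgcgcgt
Plac8: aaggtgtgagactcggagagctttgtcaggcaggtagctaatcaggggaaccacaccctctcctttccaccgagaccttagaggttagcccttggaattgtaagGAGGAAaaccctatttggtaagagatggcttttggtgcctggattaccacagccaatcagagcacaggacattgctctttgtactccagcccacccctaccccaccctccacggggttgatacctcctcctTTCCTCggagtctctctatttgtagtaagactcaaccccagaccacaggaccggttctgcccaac
Ly6c2: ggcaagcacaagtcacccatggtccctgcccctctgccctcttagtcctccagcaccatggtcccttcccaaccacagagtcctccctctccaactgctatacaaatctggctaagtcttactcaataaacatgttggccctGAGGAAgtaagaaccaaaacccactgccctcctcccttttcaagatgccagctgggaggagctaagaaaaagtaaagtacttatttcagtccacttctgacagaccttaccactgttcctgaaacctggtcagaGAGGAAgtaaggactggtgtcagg

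These windows ranged in GC content from 38.0% at Ccr2 to 63.3% at Tgfbi. The letters GAGGAA occurred in the windows of Plac8, starting at -146 and -15 from the start site, and of Ly6c2, at -108 and 27, and 28.3% of 32851 mouse windows of the same length hold them. AP-1 (TGANTCA, in 7.81% of windows), C/EBP (TTGCNNAA, 10.8%), the TATA box (TATAAA, 13.6%) and the SMAD palindrome (GTCTAGAC, 0.213%), all searched on both strands, had no match in the 5 windows printed. The table has a further start window for Plac8 (chr5:100563047-100563346) and for Ly6c2 (chr15:75111888-75112187), not printed here; that of Plac8 held a C/EBP match at -12 and no GAGGAA. Ccr2, Cx3cr1 and Tgfbi had no match to any of the 5 motifs. A match is a run of letters and not a measured site.

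UPBIG cells had far less of both chemokine receptors than DOWN cells, and less of the matrix transcripts Fn1 and Tgfbi, while Thbs1 went the other way. Of the 7 members, 5 fell in UPBIG against DOWN (Cx3cr1, Plac8, Ccr2, Fn1 and Tgfbi) where 8.48% of all tested genes fell, and 1 rose (Thbs1) where 9.03% rose. Against UPSMALL, 4 fell in UPBIG (Cx3cr1, Ccr2, Fn1 and Tgfbi; background 2.49%) and 0 rose (background 3.22%). Between UPSMALL and DOWN, 2 were lower in UPSMALL (Plac8 and Ccr2; background 0.547%) and 0 higher (background 0.594%). A joint test, for a difference between any of the groups, called 6 of 7, all but Ly6c2, against 13.8% of all tested genes. The median log2 fold change of the members was -2.68, -1.48 and -0.88 in the 3 comparisons, against -0.03, -0.03 and -0.00 over all tested genes. At an unadjusted p under 0.05, edgeR had 1 member higher in UPBIG than in UPSMALL, Thbs1, which DESeq2 and limma-voom both called; none of the 3 tools had a member higher in UPSMALL than in DOWN at that level. Together the 7 genes took 0.0459% to 0.0618% of the counts of UPBIG libraries, 0.152% to 0.286% in UPSMALL and 0.262% to 0.305% in DOWN. The members were chosen with earlier results of these libraries known, so these counts describe the genes and say nothing about other monocyte genes. Plac8 passed the low-count filter through DOWN, so its place in the counts against DOWN is a description.

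**Figure D1:**
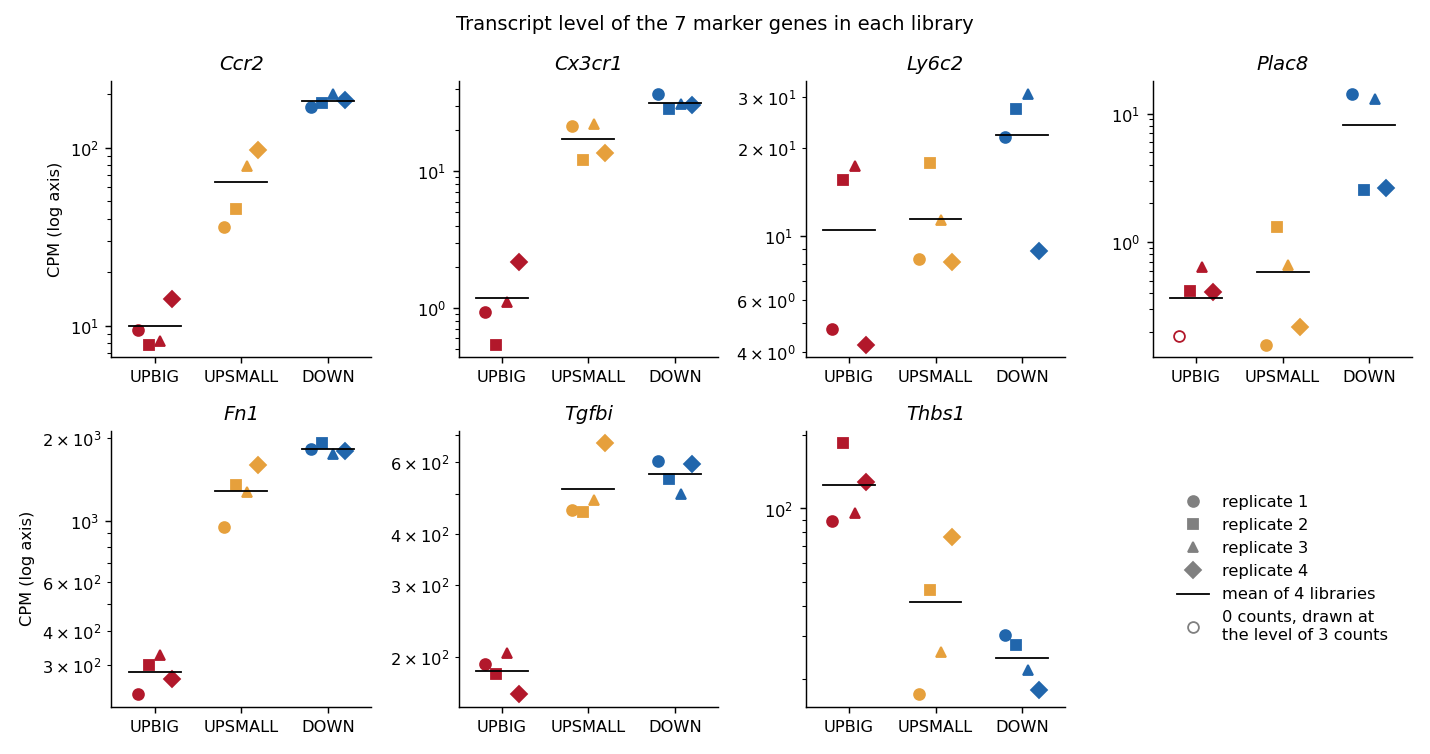
CPM of each marker gene (log axis) in the 12 libraries, with UPBIG, UPSMALL and DOWN from left to right; each point is a library, its shape gives the replicate number and the bar is the mean of 4. Ccr2, Cx3cr1 and Fn1 separate all 3 groups, Tgfbi and Thbs1 set UPBIG apart, Plac8 sets DOWN apart and Ly6c2 overlaps throughout; the UPBIG library with 0 Plac8 counts is drawn at the level of 3 counts.

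Ccr2 (ENSMUSG00000049103, chr9:124101950-124113557 on the plus strand of mm10), the receptor that brings monocytes into tissue, had 9.41, 7.83, 8.20 and 14.2 CPM in UPBIG, 36.1, 45.6, 78.7 and 97.1 CPM in UPSMALL, and 169, 179.6, 202 and 186 CPM in DOWN. No library of one group reached the range of another. UPSMALL was also the least uniform, at 64.4 ± 28.5 CPM (SD, n = 4), beside 9.91 ± 2.93 in UPBIG and 184 ± 13.7 in DOWN. Relative to DOWN, Ccr2 was 18.6-fold lower in UPBIG, a log2 fold change of -4.22 ± 0.32 (SE; adjusted p = 1.99e-06). It was lower in UPBIG than in UPSMALL by a log2 fold change of -2.71 ± 0.30 (adjusted p = 1.34e-04) and in UPSMALL than in DOWN by one of -1.51 ± 0.28 (adjusted p = 0.0224). The last call was lost without UPSMALL replicate 2 (adjusted p = 0.0535) and without DOWN replicates 1, 2 or 3 in turn (0.0522, 0.0555 and 0.0721), and it was lost without DOWN replicates 1 and 3 together (0.196).

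Cx3cr1 (ENSMUSG00000052336, chr9:119901616-120069879, minus strand), the fractalkine receptor, had 0.935, 0.538, 1.11 and 2.18 CPM in UPBIG, 21.4, 12.0, 22.1 and 13.6 CPM in UPSMALL, and 37.0, 28.5, 31.2 and 30.6 CPM in DOWN. Again no groups overlapped, and the wide gap lay between UPBIG and the rest. In UPBIG the counts behind these values summed to 75.09 over the group, beside 1510 in UPSMALL and 2708 in DOWN. The fold difference was 26.9 in UPBIG against DOWN (log2 -4.75 ± 0.32, adjusted p = 8.14e-09), the largest of the 7, and UPBIG also fell against UPSMALL (-3.87 ± 0.31, adjusted p = 2.90e-07). UPSMALL stood at -0.88 ± 0.25 against DOWN, past no threshold (adjusted p = 0.0991), though 5 of 23 alternative settings called it, DESeq2 (0.0239) and limma-voom (0.0189) among them. Its exons share 78 bases with the antisense transcript Gm33858, which had 54 counts over all 12 libraries.

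The receptors did not follow each other within UPSMALL. Ccr2 counts per Cx3cr1 count were 6.50 to 14.4 in UPBIG, 1.69 to 7.13 in UPSMALL and 4.57 to 6.47 in DOWN. UPSMALL replicate 1 had the lowest Ccr2 of its group with a Cx3cr1 level near the highest, and replicate 4 the highest Ccr2 with the Cx3cr1 next to lowest. Replicate 4 also had the highest dendritic cell marker sum of its group (103 CPM, against 41.8 to 55.7 in the other UPSMALL libraries); the part of such cells in Ccr2 was not tested. Over the 12 libraries, the genes whose centred log2 CPM lay closest to Ccr2 were the leukemia inhibitory factor receptor gene Lifr (root mean square difference 0.44) and the MHC class II genes H2-Eb1 (0.49) and H2-Aa (0.51). Among those closest to Cx3cr1 were Ccr2 itself (0.71) and Lifr (0.74).

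Several dendritic cell transcripts were also lower in UPBIG than in DOWN. Of 11 markers 10 were tested. In UPBIG against DOWN 8 fell (median log2 fold change -4.23), where 8.48% of all tested genes fell. Another 2 calls were lower against UPSMALL (2.49% of all tested genes), and 1 was lower in UPSMALL against DOWN (0.547%). Markers that passed the low-count filter through DOWN alone had to differ, so these counts are a description. In UPBIG against UPSMALL the median of the list was -1.84, and the 2 called were Flt3 (-5.23 ± 1.13) and Ccl17 (-2.96 ± 0.34). Of the tested markers only Clec9a and Xcr1 went the other way there, at 1.28 ± 0.53 and 0.76 ± 0.69, neither called. Flt3, a receptor that defines dendritic cells and their precursors, was at 0 in 3 of the 4 UPBIG libraries, had 0.178 to 2.28 CPM in UPSMALL and 1.73 to 5.48 CPM in DOWN. The part of dendritic cells in the differences of Ccr2 and Cx3cr1 was not tested.

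No ligand of these receptors was called. None of the 5 tested ligand genes passed the threshold in any comparison with edgeR, with 0 at an unadjusted p under 0.05 in UPBIG against DOWN and 1, Ccl12, in UPBIG against UPSMALL; DESeq2 called 0 and 1 (Ccl12) in these comparisons, and limma-voom called 0 in both. Ccl2, the main ligand of CCR2, had 24.4, 17.8, 28.0 and 12.1 CPM in UPBIG, 16.1, 22.9, 10.1 and 26.7 CPM in UPSMALL, and 12.7, 27.8, 34.3 and 4.20 CPM in DOWN. All groups overlapped, and the log2 fold change of UPBIG against DOWN was 0.06 ± 0.57 with a 95% interval from -1.21 to 1.33 (adjusted p = 0.959). The CCR2 ligands Ccl7, Ccl8 and Ccl12 stood at -1.15 ± 0.75, -0.32 ± 0.76 and -0.76 ± 0.36, and the CX3CR1 ligand Cx3cl1 at -0.34 ± 0.57, in the same comparison. These intervals are wide: for Ccl7 the 95% interval ran from -2.81 to 0.52, and leaving out DOWN replicate 4, where Ccl7 had 0.896 CPM beside 14.5 to 24.1 in the other DOWN libraries, gave -1.52 (adjusted p = 0.0107). Ccl12 was called in 3 of 23 alternative settings of UPBIG against DOWN, as lower.

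**Figure D2:**
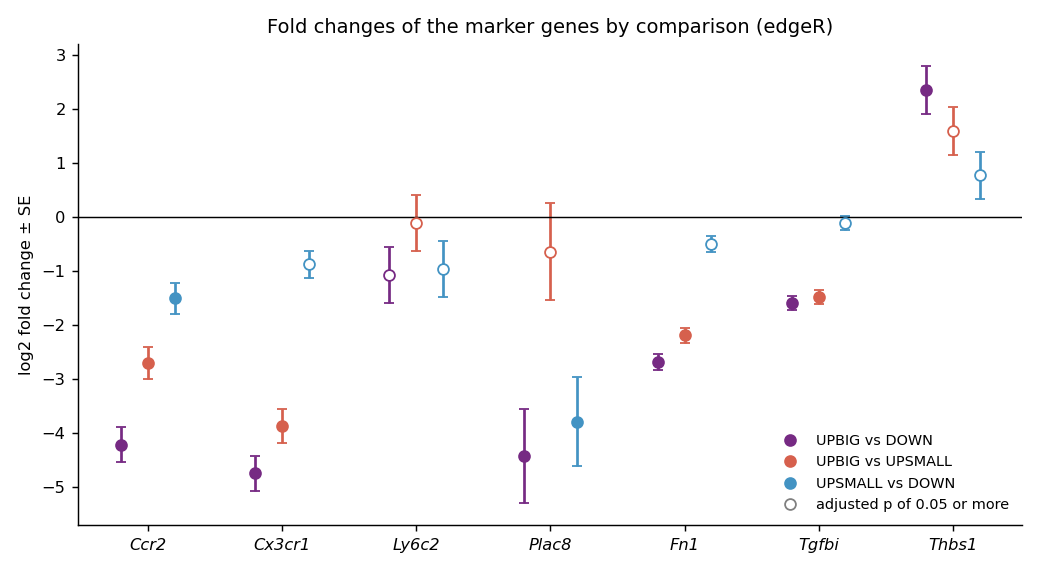
Log2 fold change of each member with its standard error in UPBIG against DOWN, UPBIG against UPSMALL and UPSMALL against DOWN, from the edgeR fit of all 12 libraries; open points have an adjusted p of 0.05 or more. Ccr2, Cx3cr1, Fn1 and Tgfbi lie below 0 with filled points in both comparisons of UPBIG, and Thbs1 lies above 0 in all 3 comparisons with 1 filled point.

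Ly6c2 (ENSMUSG00000022584, chr15:75108158-75111970, minus strand), a surface protein of classical monocytes, overlapped between the groups. It had 4.80, 15.5, 17.4 and 4.23 CPM in UPBIG, 8.34, 17.8, 11.3 and 8.12 CPM in UPSMALL, and 21.8, 27.2, 30.7 and 8.86 CPM in DOWN. Libraries of every group lay within the range of the others, and DOWN replicate 4 was below 2 UPBIG libraries. The log2 fold change was -1.07 ± 0.52 in UPBIG against DOWN (95% interval -2.22 to 0.08, adjusted p = 0.201) and -0.11 ± 0.52 against UPSMALL (-1.26 to 1.04, adjusted p = 0.950). Of 23 alternative settings 1 called it lower in UPBIG than in DOWN, the edgeR fit with the replicate number as a block (adjusted p = 0.00381). The labels do not say what that number stands for. The genes with the most similar pattern were Scai (0.4), Zfp54 (0.45) and Nlrc5 (0.47), the last a regulator of MHC class I genes.

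Ly6c2 shares sequence with a neighbouring gene, so its counts are uncertain. Ly6c1 encodes the other Ly6C protein, and the longest aligned stretch of the transcripts, 822 bases, was 97.6% identical. The first 90 coding bases of each are shown, spliced, from GENCODE M21 on mm10 (minus strand; the whole coding sequence spans chr15:75110608-75111667 for Ly6c2 and chr15:75047450-75048511 for Ly6c1), with capitals at the 6 bases that differ.
Ly6c2: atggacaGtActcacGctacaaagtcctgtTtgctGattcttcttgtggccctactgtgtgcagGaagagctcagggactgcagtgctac
Ly6c1: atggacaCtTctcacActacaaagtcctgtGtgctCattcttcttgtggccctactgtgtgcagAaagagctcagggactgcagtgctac

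Over all 396 coding bases the copies differ at 9, and the longest identical run is 188 bases, so a read can fit both and the authors' estimate divides it. Ly6c1 was listed at 0 in all 4 UPBIG libraries, at 1.01, 33.39, 67.71 and 79.35 counts in UPSMALL, and at 0, 0, 3.1 and 0 in DOWN. Almost all Ly6c1 counts thus stood in UPSMALL replicates 2, 3 and 4. Transcripts of Ly6c1 and reads that fit both genes cannot be told apart in the table. With the counts of Ly6c2 and Ly6c1 added, the log2 fold change of UPBIG was -1.07 against DOWN (adjusted p = 0.198) and -0.34 against UPSMALL (adjusted p = 0.817), so the calls were the same. Ly6a, a further relative, shares 134 bases at 94.8% identity.

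Plac8 (ENSMUSG00000029322, chr5:100553725-100572245, minus strand), a small cysteine-rich protein made by monocytes and also by lymphocytes, was high only in DOWN and unevenly so. It had 0, 0.418, 0.645 and 0.409 CPM in UPBIG, 0.159, 1.30, 0.667 and 0.220 CPM in UPSMALL, and 14.3, 2.55, 12.9 and 2.64 CPM in DOWN. UPBIG and UPSMALL overlapped, and all 4 DOWN libraries lay above both, in pairs of high and low ones. The counts are few: 24 over the UPBIG group, 50 over UPSMALL and 694 over DOWN, of which DOWN replicates 1 and 3 held 331 and 254. Plac8 thus passed the low-count filter through DOWN. A gene kept in this way tends to differ from DOWN, so its calls against DOWN are a description. Both were also made with no low-count filter. In UPBIG replicate 1 a count of 0 allows up to 0.187 CPM, the level of 3 counts, for counting error only. The log2 fold change was -4.43 ± 0.87 in UPBIG against DOWN (adjusted p = 0.00285), -3.79 ± 0.82 in UPSMALL against DOWN (adjusted p = 0.0425) and -0.64 ± 0.89 in UPBIG against UPSMALL (95% interval -2.56 to 1.27, adjusted p = 0.789).

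Several T cell transcripts were high in DOWN, as was Plac8. The genes with the most similar pattern over the 12 libraries were Ms4a4b (0.65), a membrane protein of T cells, and the T cell receptor chains Trbc2 (0.82) and Trac (0.85). Ms4a4b had 0.623 to 3.34 CPM in UPBIG, 0.903 to 2.36 CPM in UPSMALL, and 28.4, 8.76, 29.7 and 15.3 CPM in DOWN, with replicates 1 and 3 highest as for Plac8. The CD3 chain Cd3d had 0.498 to 1.14 CPM in UPBIG, 0.110 to 1.25 CPM in UPSMALL, and 17.4, 6.36, 14.4 and 8.06 CPM in DOWN. In DOWN, Trac had 8.22, 3.23, 7.20 and 4.01 CPM and Trbc2 14.9, 6.79, 15.9 and 12.8 CPM. Their highest values were 0.477 and 1.46 CPM in UPBIG, and 0.450 and 1.07 CPM in UPSMALL. DOWN replicate 4 was thus low for Plac8 but not for Trbc2, and Plac8 counts per Trbc2 count ran from 0.207 to 0.962 in DOWN. Cd3e and Klrk1 were highest in DOWN replicate 4 (1.46 and 11.6 CPM). Of 16 T and NK cell markers 13 were tested; 9 fell in UPBIG against DOWN (median log2 fold change -3.24; 8.48% of all tested genes fell) and 6 in UPSMALL against DOWN (-3.39; 0.547%). A marker that passed the low-count filter through DOWN alone had to differ, so these counts are a description. Against UPSMALL, 2 of the 13 rose in UPBIG, Cd4 and Cd28, where 3.22% of all tested genes rose. The part of T cells in the Plac8 difference was not tested. Without DOWN replicates 1 and 3, Plac8 stood at -2.79 in UPBIG against DOWN (adjusted p = 0.0856) and at -2.14 in UPSMALL against DOWN (adjusted p = 0.518). Leaving out DOWN replicate 1 alone gave -3.98 and -3.34, and replicate 3 alone -4.10 and -3.46; UPBIG remained called against DOWN in both (adjusted p = 0.00529 and 0.00585), and UPSMALL did not (0.0822 and 0.0997). The call of Plac8 in UPSMALL against DOWN held in 9 of 22 alternative settings, and was also lost without UPSMALL replicates 1, 3 or 4 in turn (0.129, 0.104 and 0.0890) and without UPBIG replicates 2, 3 or 4 in turn (0.0645, 0.0537 and 0.0578). limma-voom gave -4.22 for UPBIG against DOWN with an adjusted p of 0.0854.

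**Figure D3:**
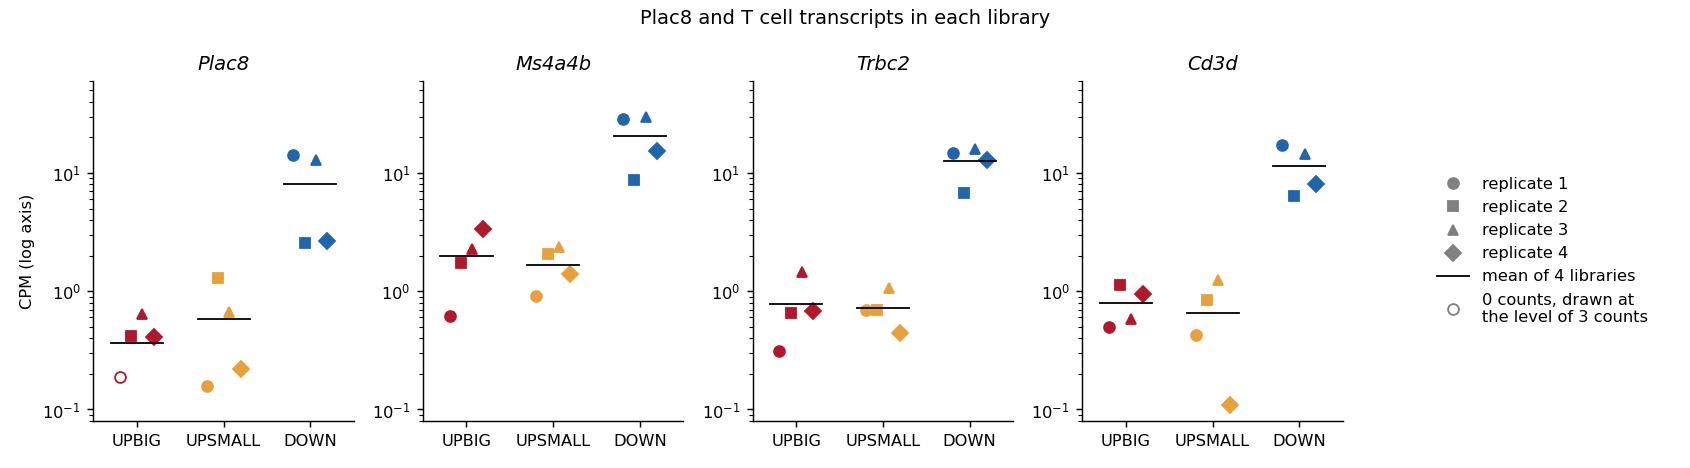
CPM (log axis) of Plac8 and of the T cell transcripts Ms4a4b, Trbc2 and Cd3d in each library, with UPBIG, UPSMALL and DOWN from left to right, replicate numbers as shapes and means of 4 as bars. All 4 genes are higher in every DOWN library than in any other library, and Plac8, Ms4a4b and Cd3d are highest in DOWN replicates 1 and 3.

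Fn1 (ENSMUSG00000026193, chr1:71585520-71653200, minus strand), which encodes the matrix glycoprotein fibronectin, was the most counted of the members. It had 235, 299, 327 and 268 CPM in UPBIG, 945, 1344, 1268 and 1586 CPM in UPSMALL, and 1818, 1906, 1743 and 1785 CPM in DOWN. The groups did not overlap, and DOWN libraries were the most alike, at 1813 ± 69.2 CPM (SD, n = 4). Fn1 was 6.42-fold lower in UPBIG than in DOWN (log2 -2.68 ± 0.15, adjusted p = 3.78e-10) and lower in UPBIG than in UPSMALL (-2.19 ± 0.14, adjusted p = 1.67e-08). UPSMALL stood at -0.50 ± 0.14 against DOWN (adjusted p = 0.0921; 0.0289 without UPSMALL replicate 4, the UPSMALL library nearest to DOWN). DESeq2 (0.0248) and limma-voom (0.0195) called it. The transcript Apol7d shares 292 exon bases on the other strand and had 88.38 counts in all. Among the genes closest in pattern were the inhibitory Fc receptor Fcgr2b (0.28) and the transcription factor Nfe2 (0.29).

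Tgfbi (ENSMUSG00000035493, chr13:56609523-56639562, plus strand), a secreted matrix protein named for its induction by TGF-beta, gave a step rather than a gradient. It had 192, 182, 205 and 162 CPM in UPBIG, 458, 453, 484 and 667 CPM in UPSMALL, and 602, 544, 502 and 595 CPM in DOWN. UPBIG lay below UPSMALL and DOWN, and these 2 overlapped through UPSMALL replicate 4 alone. The other UPSMALL libraries lay below every DOWN library, and without replicate 4 UPSMALL stood at a log2 fold change of -0.26 against DOWN, not called. The log2 fold change was -1.60 ± 0.13 in UPBIG against DOWN (adjusted p = 8.53e-08) and -1.48 ± 0.13 against UPSMALL (adjusted p = 6.24e-07), while UPSMALL stood at -0.12 ± 0.13 against DOWN (95% interval -0.39 to 0.15, adjusted p = 0.763). The closest patterns were those of Nav1 (0.14), of Id1 (0.23), a target of BMP signalling, and of Srebf2 (0.23), the regulator of cholesterol synthesis genes.

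Thbs1 (ENSMUSG00000040152, chr2:118111876-118127133, plus strand), the gene of the matrix protein thrombospondin 1, was the one member higher in UPBIG. It had 88.8, 185, 95.9 and 128 CPM in UPBIG, 17.3, 46.5, 25.7 and 76.1 CPM in UPSMALL, and 30.2, 27.5, 21.7 and 18.0 CPM in DOWN. Every UPBIG library was above every other library, and UPSMALL and DOWN overlapped. Thbs1 was 5.11-fold higher in UPBIG than in DOWN (log2 2.35 ± 0.45, adjusted p = 0.00528; 0.0625 without DOWN replicates 1 and 3, at 2.46). Against UPSMALL it stood at 1.59 ± 0.44 (adjusted p = 0.0691), and at 2.07 with an adjusted p of 0.0130 without UPSMALL replicate 4, the highest of its group. UPSMALL against DOWN gave 0.77 ± 0.44 (adjusted p = 0.516; 0.30 without UPSMALL replicate 4). The closest patterns were those of Mylip (0.55), whose product marks the LDL receptor for degradation, Cenpv (0.55) and the scavenger receptor gene Colec12 (0.57). Platelets store thrombospondin, and their markers, of which 6 of 7 were in the table, summed to 13.4 to 39.8 CPM in UPBIG, 18.9 to 36.3 CPM in UPSMALL and 9.00 to 37.8 CPM in DOWN, with the groups overlapping. Pf4 held most of this sum in every library (11.3 to 39.3 CPM in UPBIG), while Itga2b reached at most 0.578 CPM, so the sum is largely that of 1 gene. The part of platelets in Thbs1 was not tested. The epithelial keratins Krt8 and Krt18 were highest in UPBIG replicate 2 (5.50 and 9.03 CPM) and UPSMALL replicate 4 (15.7 and 6.68 CPM). These libraries had the highest Thbs1 of their groups. Scgb1a1 was also highest there within each group (212 and 16.5 CPM). The other lung epithelium markers were highest in other UPBIG libraries. Sftpc and Sftpa1 peaked in UPBIG replicate 3 (42.7 and 3.16 CPM), Epcam in UPBIG replicate 4 (3.34 CPM) and Ager in UPBIG replicate 1. Within UPSMALL, Epcam was highest in replicate 4, and Sftpc, Sftpa1 and Ager were not. Whether epithelial cells add to Thbs1 was not tested. Without UPBIG replicate 2 and UPSMALL replicate 4, Thbs1 stood at 2.11 in UPBIG against DOWN (adjusted p = 8.71e-04) and at 1.81 in UPBIG against UPSMALL (0.0123).

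The matrix transcripts thus changed their proportions inside each library. There were 2.65, 1.61, 3.41 and 2.09 Fn1 counts per Thbs1 count in UPBIG, 54.6, 28.9, 49.4 and 20.8 in UPSMALL, and 60.2, 69.2, 80.3 and 99.3 in DOWN. The ratio needs no scaling between libraries, and it put all 3 groups apart without overlap. Fn1 counts per Tgfbi count were 1.23 to 1.65 in UPBIG, 2.06 to 2.96 in UPSMALL and 3.00 to 3.50 in DOWN, also without overlap, so Fn1 and Tgfbi did not fall by the same factor.

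**Figure D4:**
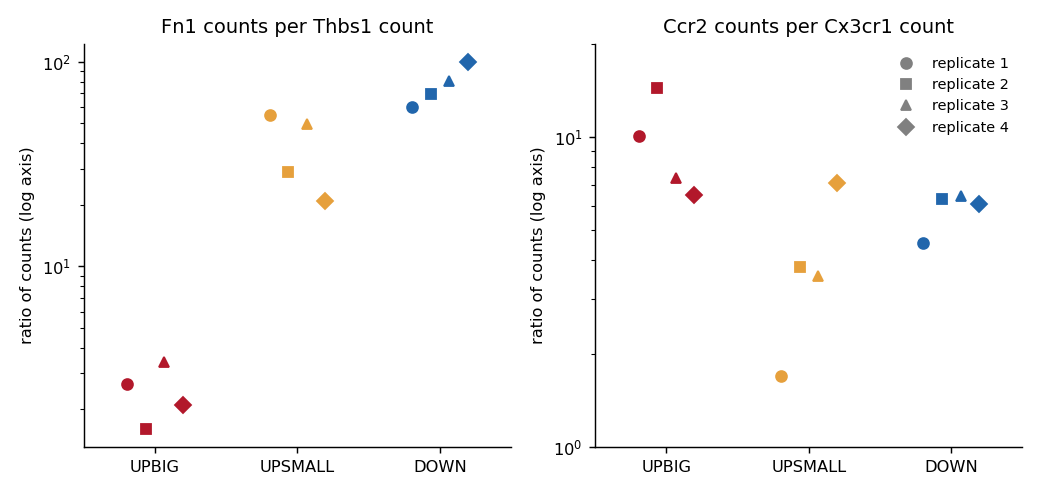
Counts of Fn1 per count of Thbs1 (left) and of Ccr2 per count of Cx3cr1 (right) in each library on log axes, with UPBIG, UPSMALL and DOWN from left to right and replicate numbers as shapes. The first ratio is at most 3.41 in UPBIG and at least 20.8 elsewhere; the second ranges over 1.69 to 7.13 in UPSMALL, which overlaps both other groups, while UPBIG (6.50 to 14.4) lies above DOWN (4.57 to 6.47).

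UPSMALL did not sit at one place between the other groups: it was close to DOWN for 3 of the members. On the log2 scale, with DOWN at 0% and UPBIG at 100%, UPSMALL lay at 7.58% for Tgfbi, 18.5% for Cx3cr1, 18.5% for Fn1, 32.7% for Thbs1, 35.9% for Ccr2, 85.5% for Plac8 and 89.6% for Ly6c2. For Ly6c2 the distance from DOWN to UPBIG was itself not called (95% interval -2.22 to 0.08), so its share cannot be relied on. A test of UPSMALL against the middle of the log2 levels of UPBIG and DOWN called 3 members above it (Cx3cr1, Fn1 and Tgfbi), where 0.158% of all tested genes were above it. It called 0 below it, against a background of 0.0871%; at an unadjusted p under 0.05, edgeR and DESeq2 had 0 there and limma-voom had 1, Thbs1. Cx3cr1 was above the middle by 1.49 ± 0.23 (adjusted p = 0.00309), Fn1 by 0.85 ± 0.12 (adjusted p = 0.00251) and Tgfbi by 0.68 ± 0.11 (adjusted p = 0.00474). Ccr2 (0.60 ± 0.24, adjusted p = 0.523), Plac8 (-1.57 ± 0.75, 0.619), Thbs1 (-0.41 ± 0.38, 0.838) and Ly6c2 (-0.42 ± 0.46, 0.874) did not pass. The same 3 members passed in all 22 alternative settings of this test. The contrast shares its libraries with the comparisons above and is a restatement of the same levels, not an independent measurement.

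**Figure D5:**
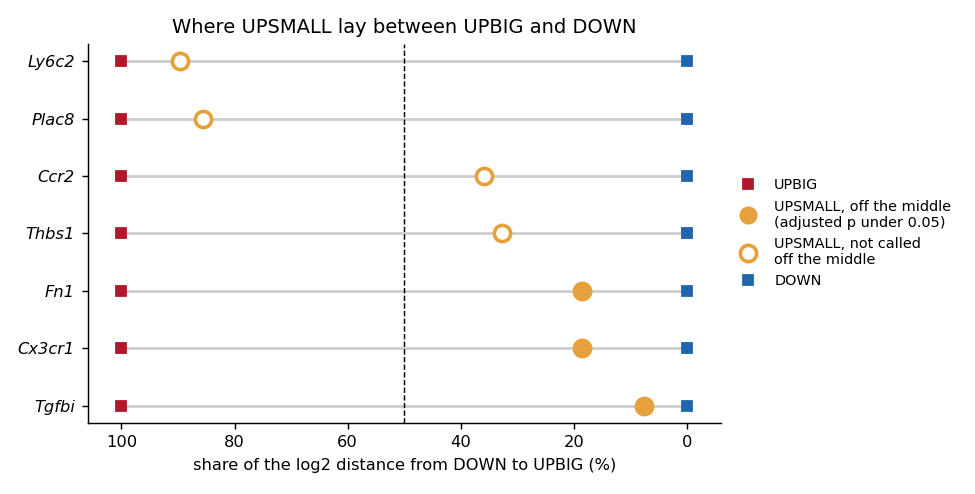
Place of UPSMALL (circles) between UPBIG (left squares, 100%) and DOWN (right squares, 0%) as the share of the log2 distance, for each member; filled circles passed the test against the middle (dashed line). Tgfbi, Cx3cr1 and Fn1 lie at 7.58% to 18.5%, and Plac8 and Ly6c2, whose circles are open, at 85.5% and 89.6%. For Ly6c2 the distance between UPBIG and DOWN was itself not called.

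Set against each other per kilobase of exon, the members kept no common order across the groups. In UPBIG the mean CPM per kilobase was 49.1 ± 4.78 for Tgfbi, 24.2 ± 3.40 for Fn1, 20.5 ± 7.23 for Thbs1, 3.83 ± 2.54 for Ly6c2, 1.47 ± 0.433 for Ccr2, 0.265 ± 0.156 for Cx3cr1 and 0.231 ± 0.169 for Plac8 (SD, n = 4). Fn1 and Thbs1 differed there by less than their spread, as did Ly6c2 and Ccr2 and, below them, Cx3cr1 and Plac8. In UPSMALL the order per kilobase was Tgfbi (137 ± 27.0), Fn1 (110.0 ± 22.6), Ccr2 (9.52 ± 4.21), Thbs1 (6.82 ± 4.31), Ly6c2 (4.16 ± 1.65), Cx3cr1 (3.83 ± 1.16) and Plac8 (0.368 ± 0.331), and neighbours down to Cx3cr1 lay within their spread except between Fn1 and Ccr2. In DOWN it was Fn1 (155 ± 5.92), Tgfbi (149 ± 12.4), Ccr2 (27.2 ± 2.03), Ly6c2 (8.08 ± 3.50), Cx3cr1 (7.06 ± 0.809), Plac8 (5.09 ± 4.01) and Thbs1 (4.01 ± 0.911), with Fn1 and Tgfbi, and all below Ccr2, within their spread of a neighbour. Thbs1 was thus below Tgfbi and Fn1 alone in UPBIG, and the lowest of the 7 in DOWN.

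Of 22 other genes of the classical monocyte, 20 were tested; 6 fell and 1 rose in UPBIG against DOWN, with a median log2 fold change of -0.87 against -0.03 over all tested genes, and 3 fell against UPSMALL. In these comparisons 8.48% of all tested genes fell and 9.03% rose against DOWN, and 2.49% fell against UPSMALL, which is also the background of the lists that follow. The calcium-binding protein gene S100a4 had 16.9, 12.1, 24.9 and 12.6 CPM in UPBIG, 86.5, 59.9, 86.5 and 266 CPM in UPSMALL, and 160.1, 142, 139 and 194 CPM in DOWN (UPBIG against DOWN -3.25 ± 0.49, adjusted p = 0.00144). UPSMALL replicate 4 was the highest of all libraries for it. Csf1r, the receptor for macrophage colony-stimulating factor, fell by 0.80 ± 0.09 (adjusted p = 7.58e-06) and Ms4a6c by 0.82 ± 0.16 (adjusted p = 0.00129) on the log2 scale. The transcription factor gene Klf2 rose by 1.20 ± 0.28 (adjusted p = 0.00489). On library totals alone, 13 of these genes fell against DOWN, where 3237 of all 12625 tested genes fell.

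Genes of the nonclassical monocyte went both ways. Of 9 tested, 3 fell in UPBIG against DOWN (the adhesion receptor gene Adgre4 at -2.57 ± 0.49, the enolase gene Eno3 at -2.86 ± 0.56 and the integrin chain Itgal at -0.45 ± 0.13) and 2 rose, with a median of -0.45. The Fc receptor gene Fcgr4 had 386, 361, 335 and 293 CPM in UPBIG, 168, 184, 153 and 183 CPM in UPSMALL, and 124, 92.4, 126 and 79.1 CPM in DOWN, in 3 ranges that did not overlap (UPBIG against DOWN 1.71 ± 0.14, adjusted p = 1.11e-07). The peptidase gene Ace rose by 1.15 ± 0.26 (adjusted p = 0.00372). Itgal lost its call without UPBIG replicate 2 or 4 or DOWN replicate 1 or 3 (adjusted p from 0.0542 to 0.0700), and Itgal (0.229) and Ace (0.0799) without DOWN replicates 1 and 3 together.

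Among 20 genes of monocyte-derived lung macrophages, 18 were tested; 7 fell and 2 rose in UPBIG against DOWN (median -0.62), and the same number fell against UPSMALL (median -0.47). The genes of MHC class II presentation H2-Aa, Cd74 and H2-Ab1 fell most clearly, at -3.53 ± 0.29, -3.45 ± 0.31 and -3.41 ± 0.30. The complement genes C1qb and C1qc fell by 0.72 ± 0.12 and 0.66 ± 0.12, the collagenase gene Mmp14 by 0.86 ± 0.13 and Arg1, the arginase of alternatively activated macrophages, by 1.77 ± 0.43 on the log2 scale. Gpnmb, a glycoprotein of lipid-laden and scar-associated macrophages, rose by 1.83 ± 0.32, and the lysosomal membrane gene Cd63 rose by 0.50 ± 0.15. The Cd63 call was lost in 5 of 23 alternative settings, which were library totals alone and the fits without UPBIG replicate 1, DOWN replicate 3, DOWN replicate 4 or DOWN replicates 1 and 3 together.

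Of 17 receptors and partners of the matrix members, 15 were tested; 3 fell and 2 rose in UPBIG against DOWN (median -0.08), beside 8.48% and 9.03% of all tested genes and a median of -0.03, so the list as a whole was close to that background. Cd36, a scavenger receptor that binds thrombospondin 1 and oxidized lipid, had 544, 565, 732 and 510.3 CPM in UPBIG, 156, 167, 128 and 85.2 CPM in UPSMALL, and 112, 96.5, 121 and 64.5 CPM in DOWN. UPBIG stood clear of the rest, as it did for Thbs1, with a log2 fold change of 2.58 ± 0.23 against DOWN (adjusted p = 2.22e-06). The transglutaminase gene Tgm2, whose enzyme crosslinks fibronectin, rose by 1.52 ± 0.20 (adjusted p = 5.23e-05). Stab1, a scavenger receptor, fell by 2.35 ± 0.37 (adjusted p = 4.85e-04), and the integrin chains of fibronectin receptors Itga4 and Itga5 fell by 0.59 ± 0.13 (adjusted p = 0.00399) and 0.81 ± 0.20 (adjusted p = 0.00857) on the log2 scale. Itga5 lost its call without DOWN replicates 1 and 3 together (0.0604). On library totals alone, 7 genes of this list fell against DOWN, where 3237 of all 12625 tested genes fell.

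In the TGF-beta pathway, the source of the name of Tgfbi, 11 of 14 genes were tested, and 2 fell and 2 rose in UPBIG against DOWN (median -0.52), with 0 called by edgeR in the other comparisons. At an unadjusted p under 0.05, edgeR had Tgfbr2 higher and Tgfbr1 lower in UPBIG than in UPSMALL, where DESeq2 and limma-voom each called Tgfbr1, and Skil and Tgfbr1 lower in UPSMALL than in DOWN, where neither other tool called a gene. The receptor gene Tgfbr1 fell by 0.56 ± 0.09 (adjusted p = 3.52e-04) and the feedback regulator Skil by 0.73 ± 0.17 (adjusted p = 0.00461) on the log2 scale. Tgfbr2 rose by 0.39 ± 0.11 (adjusted p = 0.0219), and on library totals alone it did not pass (adjusted p = 0.715). Tgfbr2 lost its call without UPBIG replicate 3 (0.0704) or DOWN replicate 2 (0.0717), and Skil without DOWN replicates 1 and 3 together (0.137). Scaling by library totals alone moved the median of all tested genes from -0.03 to -0.36 in UPBIG against DOWN, from -0.03 to -0.31 in UPBIG against UPSMALL and from -0.00 to -0.05 in UPSMALL against DOWN, and each member kept its direction under it.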

How the data were processed

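Full-length cDNA was made from the polyadenylated RNA of lysed cells with SMART-Seq chemistry, per the labels' protocols. The authors deposited RSEM expected counts per gene and library, from STAR alignments to mm10, per the submitters' processing notes. Their versions, the annotation release and how strand was set were not given in the sources used here. Reads of a gene and of its antisense partner therefore cannot be told apart. Of the deposited values, 13.8% are not whole; they were rounded. Symbols for 26775 of 26855 identifiers and all coordinates came from GENCODE M21. Genes kept by filterByExpr, 12625 in all, were fitted over the 12 libraries with edgeR 4.0.16 in R 4.3.3 (TMM, robust quasi-likelihood F tests, no block), with Benjamini-Hochberg adjustment over all of them. An adjusted p under 0.05 is a call, SE is the size of the log2 fold change over the root of F, and 95% intervals use the fit's degrees of freedom. Library totals of 17109669 to 23282621 set the precision; a count of 0 allows up to 3 counts, for counting error only, since reads from PCR with no molecular identifiers cannot stand for independent molecules.

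The members and gene lists were chosen with earlier results of these data known. The text names the members, up to 3 called genes with the smallest p per direction in each pathway list, all ligands, the 3 most counted genes of a cell type list, and, as most alike, the 3 tested genes with the smallest root mean square difference in centred log2 CPM (prior count 2). Cell type markers named beyond these (Siglecf, Car4, Flt3, Ncr1, Cd3d, Cd3e, Klrk1, Cd4, Cd28, S100a9, Clec9a, Xcr1, Krt8, Krt18, Sftpa1, Ager), Ly6c1, Ly6a and the antisense genes beside the members, and C1qb, C1qc, Mmp14 and Arg1, were chosen after their values were seen. Similar transcripts were searched with blastn 2.17.0. Alternatives were DESeq2 1.42.0, limma-voom (limma 3.58.1) with quality weights, RLE factors, library totals with no factors, no or a stricter filter (5 CPM in 4 libraries), a block for the replicate number, a fit of the 8 libraries of each comparison and each library left out. Leaving out DOWN replicates 1 and 3, leaving out UPSMALL replicate 4 with UPBIG replicate 2, and adding Ly6c1 to Ly6c2 were added after seeing the data. The steps were tested on simulated data. Some genes that these rules name are not reported here.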

Additional observations from a re-analysis of the deposited data

Results flagged for a closer look

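Tgfbi stood at 667 CPM in UPSMALL replicate 4, apart from the other UPSMALL libraries at 453 to 484 CPM, by a gap of 0.859 of the range of the group, above the 95% limit of Dixon's test. Without that library UPBIG stayed below UPSMALL, and UPSMALL stood at -0.26 against DOWN, not called. The summed platelet markers stood at 39.8 CPM in UPBIG replicate 3, apart from 13.4 to 15.5 CPM in the other UPBIG libraries, with a gap of 0.919 of the range. Pf4 alone had 39.3 CPM in UPBIG replicate 3. Thbs1 in that library, at 95.9 CPM, lay within the range of the other UPBIG libraries. Of 51 groups of values looked at in this way, chance flags about 1 in 20.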

How the results depend on the processing

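In UPBIG against UPSMALL 4 members fell in all 23 alternatives, and in UPBIG against DOWN 4 to 6 fell. Of 632 member values under alternatives, 591 kept direction and side of the threshold, 21 lost a call, 16 gained one and 4 turned. The count lower in UPSMALL than in DOWN, 2, was 4 with DESeq2, 4 with no low-count filter, 1 with the stricter filter, 0 without DOWN replicates 1 and 3, and 0 to 2 with single libraries left out (0 without DOWN replicate 1 or 3). The count higher in UPBIG than in DOWN, 1, was 0 without DOWN replicates 1 and 3. The count higher in UPBIG than in UPSMALL, 0, was 1 (Thbs1) with DESeq2, with limma-voom and without UPSMALL replicate 4 and UPBIG replicate 2, and 0 to 1 with single libraries left out (1 without UPSMALL replicate 4). Over all genes, library totals alone gave 518 higher and 3237 lower in UPBIG against DOWN, beside 1140 and 1070, and 189 and 1433 in UPBIG against UPSMALL, beside 406 and 314. Calls in UPSMALL against DOWN, 144, were 393 with DESeq2, 226 with limma-voom, 460 with no filter and 33 without DOWN replicates 1 and 3. The causes were not tested.

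Directions that turned were not called. These were Plac8 in UPBIG against UPSMALL (0.08) and Ly6c2 likewise (0.19) without UPSMALL replicate 2, and Ly6c2 without UPBIG replicate 1 (0.13) or 4 (0.15). In UPBIG against DOWN, Ccl8 (0.12) and Cx3cl1 (0.24) turned without DOWN replicates 1 and 3, and Cx3cl1 also with limma-voom (0.12) and without DOWN replicate 3 (0.52). Ccl2 turned on library totals alone (-0.23) and without UPBIG replicate 1 (-0.03) or 3 (-0.12), or DOWN replicate 1 (-0.09) or 4 (-0.26). With libraries left out, values ran from -1.06 to 0.08 for Plac8, -0.49 to 0.19 for Ly6c2, -0.77 to 0.12 for Ccl8, -0.62 to 0.52 for Cx3cl1 and -0.26 to 0.48 for Ccl2.

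The labels do not say what a replicate number stands for, and the numbers did not meet the rule used for pairing, a correlation over 0.1 in every pair: same-numbered deviations correlated at -0.03 to 0.15, with 5 of 12 over 0.1. As a hint from the data, 9 of 12 were best with their own number. With the replicate number as a block, calls over all genes were 2607, 1025 and 275 in UPBIG against DOWN, UPBIG against UPSMALL and UPSMALL against DOWN, beside 2210, 720 and 144 without it. With the block 6 members fell in UPBIG against DOWN, Ly6c2 among them (-1.19, adjusted p = 0.00381). In UPSMALL against DOWN the block added Cx3cr1 (0.0483) and Fn1 (0.0238) and dropped Plac8 (0.0529).

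Depth limits Plac8 and Cx3cr1 in UPBIG, with 24 and 75.09 counts over 4 libraries. The stricter filter leaves Plac8 untested.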
